A study of Mus musculus with 16 samples.

Results

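Nos2, Ptgs1, Ptgs2, Ptges, Ptgds, Cybb, Cyba, Ncf1 and Ncf4 encode enzymes and enzyme subunits that make nitric oxide, prostaglandins and superoxide. They were chosen by name, with earlier results of these data known, and matched to the table of read counts by Ensembl identifier. This gave 9 of the 52636 genes in the table. Of the 9, 8 passed the filter on low counts that left 18587 genes for testing. Ptgds did not pass and was described by its counts only. The study names Nos2, Ptgs1, Ptgs2 and Cybb among the inflammatory genes of these same libraries, so their direction here is not independent evidence.

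The counts came from mouse pancreatic islets of 12-week-old male mice, kept for 10 days in medium with human serum. Control islets received no addition, IL-1β islets received 50 pg/mL recombinant mouse IL-1β, butyrate islets received 0.2 mM sodium butyrate, and IL-1β plus butyrate islets received both at these doses. No mouse carried a transgene or deletion according to the labels, in which the strain is C57BL/6JRj (C57BL/6NRj in the methods). Each of the 4 conditions had 4 libraries, 16 in all, and each library drew its 500 islets from a pool of several animals, which makes the experiment the replicate. The comparisons ask how far a low dose of the cytokine raises these enzymes over a long exposure and how far butyrate lowers them.

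Nitric oxide synthases make nitric oxide from arginine, and the inducible form encoded by Nos2 is made by beta cells and macrophages after exposure to inflammatory cytokines. Prostaglandin synthesis starts with the cyclooxygenases, encoded by Ptgs1 and Ptgs2, whose product is turned into prostaglandin E2 by the synthase of Ptges and into prostaglandin D2 by that of Ptgds. The phagocyte NADPH oxidase passes electrons across a membrane to oxygen and so makes superoxide. Its membrane part is formed by the products of Cybb (gp91phox) and Cyba (p22phox), and its cytosolic subunits include those of Ncf1 (p47phox) and Ncf4 (p40phox).

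Total counts per library were 18635943 to 25955943 (median 22184715), and levels are given as CPM (counts per 1000000) on library sizes scaled by the trimmed mean of M-values (TMM). The islet label was checked on beta cell markers, and 6 genes including Ins1 and Ins2 summed to 136558 to 260633 CPM in a library. Replicates differed by more than counting error, with a chi-square per gene between libraries of a condition of 1.72 to 13.5 where a value near 1 is the counting error alone. No 2 libraries were therefore counted as 1. The edgeR quasi-likelihood test was used, and calls needed an adjusted p below 0.01 (Benjamini-Hochberg, over the 18587 genes). Of the genes called with IL-1β against control, 63.0% were raised, a share that was 51.5% with upper-quartile scaling and 79.8% with library size only. Islets are a mixture of cell types, and in bulk RNA fewer cells of a type and less RNA per cell cannot be told apart.

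Promoter windows, the 250 bases before the RefSeq start of a gene (build GRCm38.p6), were at hand for 7 of the 9 genes, and 4 of them are printed because they carry the motifs discussed. Nos2 and Ncf4 had no entry. All are read 5′ to 3′ on the strand of the gene, with the matches to a motif in capitals. In Ptgs2, at chr1:150099781-150100030 on the plus strand, the capitals mark the C/EBP motif TTNNGNAA. In Cybb, at chrX:9469325-9469574 on the minus strand, and in Ncf1, at chr5:134229626-134229875 on the minus strand, they mark the interferon response motif (GAAA, any 2 bases, GAAA) on either strand. In Ptges, at chr2:30903298-30903547 on the minus strand, they mark the Sp1 motif GGGCGG.
Ptgs2: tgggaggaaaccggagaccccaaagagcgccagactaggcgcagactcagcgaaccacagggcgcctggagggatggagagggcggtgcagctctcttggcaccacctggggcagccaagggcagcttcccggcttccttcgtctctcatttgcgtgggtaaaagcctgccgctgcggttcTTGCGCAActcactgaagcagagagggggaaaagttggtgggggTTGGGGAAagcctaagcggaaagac
Cybb: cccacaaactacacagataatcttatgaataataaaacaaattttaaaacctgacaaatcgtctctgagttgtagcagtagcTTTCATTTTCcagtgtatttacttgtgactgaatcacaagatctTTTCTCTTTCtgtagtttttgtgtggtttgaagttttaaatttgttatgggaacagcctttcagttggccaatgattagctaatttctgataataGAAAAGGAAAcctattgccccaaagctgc
Ncf1: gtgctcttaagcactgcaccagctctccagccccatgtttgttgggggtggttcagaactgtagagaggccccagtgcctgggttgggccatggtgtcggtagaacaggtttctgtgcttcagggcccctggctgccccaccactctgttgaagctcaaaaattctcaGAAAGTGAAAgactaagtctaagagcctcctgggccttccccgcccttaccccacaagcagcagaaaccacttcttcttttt
Ptges: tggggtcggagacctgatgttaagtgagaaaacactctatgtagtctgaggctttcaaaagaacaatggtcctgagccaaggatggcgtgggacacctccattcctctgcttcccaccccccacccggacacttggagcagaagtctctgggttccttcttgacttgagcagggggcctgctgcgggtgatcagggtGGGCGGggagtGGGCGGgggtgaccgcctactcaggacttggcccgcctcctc

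The Cybb window held the interferon response motif 3 times, at bases -168, -124 and -29 from the start, and the Ncf1 window held it once, at -82, where it overlapped a match to the STAT motif TTCNNNGAA at -88. On both strands, 2.98% of 32851 RefSeq promoter windows of the same length held the interferon response motif and 7.02% held the STAT motif. The Ptgs2 window held the C/EBP motif at -69, where the match reads the same on both strands, and at -25, a motif found in 36.8% of windows. The Ptges window held Sp1 motifs at -53 and -42, as 32.7% of windows did at least once. Of the 7 windows, 1 (Ptgds) held the NF-κB motif, which 3.90% of all windows held, 2 held the AP-1 motif TGANTCA (6.75%), 3 held the PU.1 core GAGGAA (23.3%), 3 held the C/EBP motif and 4 held the Sp1 motif. The E-box CACGTG (6.02%), the CRE core TGACG (17.8%) and the TATA box TATAAA (12.4%) were in none of the 7. These are matches of letters in a short window. The starts used for Cybb, Ptges and Ptgds lie inside the longer gene models described below, so those windows are not the sequence before the outermost exon.

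Nos2, inducible nitric oxide synthase (ENSMUSG00000020826, chromosome 11, 78920787 to 78960254, plus strand of GRCm38), had almost no reads in control islets. The control libraries, replicates 1 to 4 in order, had 0, 0, 2 and 1 counts. The IL-1β libraries had 34, 26, 44 and 58 counts, those with IL-1β plus butyrate had 3, 9, 3 and 4, and those with butyrate had 10, 2, 1 and 4. In CPM these were 0.0346 ± 0.0454 in control, 1.85 ± 0.445 with IL-1β, 0.207 ± 0.121 with IL-1β plus butyrate and 0.204 ± 0.205 with butyrate (SD, n = 4). A library with no read allows a level of up to 0.140 CPM in control replicate 1 and 0.125 CPM in control replicate 2, the level of 3 counts.

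Every IL-1β library stood above every library of the other 3 conditions, and the libraries with both agents overlapped those with butyrate. From the summed counts, Nos2 was 55.8-fold higher with IL-1β than in control, with a 95% exact (Clopper-Pearson) interval of 18.7 to 273. With both agents it was 0.111 of its IL-1β level (0.0651 to 0.179). These intervals cover counting error only. The fitted log2 fold change was 5.57 (SE 0.56, adjusted p = 1.01e-08), a value that depends on the prior count since control held 3 counts in all, and -3.13 (SE 0.40, adjusted p = 1.05e-06) for the addition of butyrate to IL-1β.

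With butyrate alone Nos2 had 17 counts against 3 in control, a ratio of 5.99 (1.73 to 31.9), and the fitted difference was 2.40 (SE 0.85) with an adjusted p of 0.0347, which missed the threshold. Butyrate replicate 1 held 10 of the 17 counts. Without that library the log2 difference was 1.53 (adjusted p = 0.242). With both agents Nos2 had 19 counts against 3 in control, a ratio of 6.19 (1.82 to 32.6, counting error only), and no library overlapped with control. The fitted difference was 2.44 (SE 0.84, adjusted p = 0.0206) and missed the threshold, while the edgeR fit with no filter on low counts called it (adjusted p = 0.00711). The libraries with both agents (0.122 to 0.382 CPM) reached down to the level that a control library with no read allows. The values thus lay above control, but a return to the control level was not excluded at the threshold of the reported fit. Between IL-1β plus butyrate and butyrate the difference was 0.04 with a 95% interval of -1.11 to 1.19.

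Butyrate went with a lower Nos2 level in the presence of IL-1β. With 3 counts over the 4 control libraries, a lower level with butyrate alone could not have been seen at this depth. The fitted difference between both butyrate effects was -5.53 (SE 0.94, adjusted p = 0.00440), and Nos2 was the only 1 of the 8 tested genes called for it, where 0.0968% of all genes were called. This value also depends on the prior count and does not show that the butyrate effect on Nos2 needs IL-1β. The call was lost without butyrate replicate 1 (-4.66, adjusted p = 0.0808), and also without control replicate 2 or 4, IL-1β plus butyrate replicate 4 or butyrate replicate 4.

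**Figure D1:**
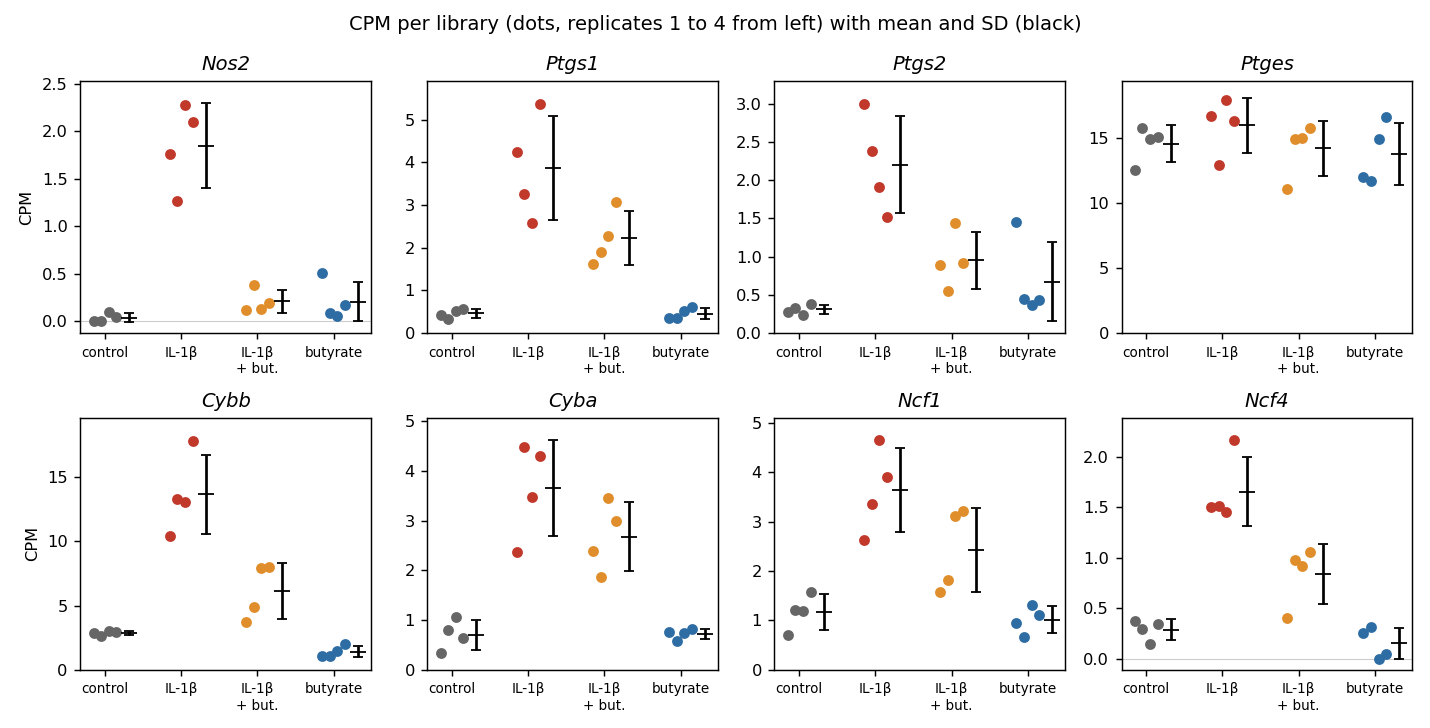
Level in CPM (y axes, linear, each starting at or just below 0) of the 8 tested genes in the 16 libraries; dots are replicates 1 to 4 of a condition from left to right and the black mark is the mean with its SD. For Nos2, Ptgs1, Ptgs2, Cybb, Cyba, Ncf1 and Ncf4 all 4 IL-1β libraries lie above all 4 control libraries, and for Ptges the conditions overlap.

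Ptgs1, the constitutive cyclooxygenase COX-1 (ENSMUSG00000047250, chromosome 2, 36230426 to 36252272, plus strand), had 9, 8, 11 and 13 counts in control, 82, 67, 50 and 149 with IL-1β, 40, 45, 52 and 64 with both, and 7, 8, 10 and 14 with butyrate. The means were 0.459 ± 0.102, 3.87 ± 1.21, 2.22 ± 0.632 and 0.458 ± 0.125 CPM in this order. IL-1β raised it by 3.08 on the log2 scale (SE 0.27, 8.47-fold, adjusted p = 6.84e-10). Butyrate lowered it in IL-1β islets by a log2 difference of -0.83 (SE 0.21, adjusted p = 0.00319), although the library ranges, 1.62 to 3.08 with both and 2.59 to 5.38 with IL-1β, overlapped. That call was lost without IL-1β replicate 4 (-0.62, adjusted p = 0.0287) or IL-1β plus butyrate replicate 1 or 2, and in a fit of only both conditions. The level with both agents stayed above that of control by 2.26 (SE 0.29, adjusted p = 3.32e-07). Butyrate alone gave a difference of 0.01 with a 95% interval of -0.74 to 0.75. Of its 3884 exon bases 148 are shared with Gm43621 on the opposite strand, and as the strand setting of the counting is not given in the sources used here, reads of both cannot be told apart there.

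Ptgs2, the inducible cyclooxygenase COX-2 (ENSMUSG00000032487, chromosome 1, 150100031 to 150108227, plus strand), had 6, 8, 5 and 9 counts in control, 58, 49, 37 and 42 with IL-1β, 22, 13, 33 and 19 with both, and 29, 10, 7 and 10 with butyrate. The means were 0.309 ± 0.0637, 2.20 ± 0.638, 0.951 ± 0.369 and 0.674 ± 0.523 CPM. The conditions did not overlap between IL-1β and control or between IL-1β and both agents, and butyrate replicate 1, at 1.46 CPM, lay above the highest library with both agents. IL-1β raised Ptgs2 by 2.78 (SE 0.38, 6.88-fold, adjusted p = 4.09e-06), and butyrate lowered it in IL-1β islets by a log2 difference of -1.19 (SE 0.31, adjusted p = 0.00541). The second call was lost without any 1 of 5 libraries, IL-1β replicates 1 and 2 and IL-1β plus butyrate replicates 1, 2 and 4, with a largest adjusted p of 0.0221.

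With both agents Ptgs2 was above control by 1.59 (SE 0.43, adjusted p = 0.00414), a call lost without any 1 of control replicates 1, 2 and 3 and IL-1β plus butyrate replicate 3 (largest adjusted p = 0.0234). Against butyrate alone the difference was 0.51 (SE 0.38, adjusted p = 0.395). Butyrate alone gave 1.08 (SE 0.46, adjusted p = 0.0831), which was 0.41 without butyrate replicate 1 (adjusted p = 0.537). The difference between both butyrate effects was -2.27 (SE 0.56) with an adjusted p of 0.107.

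Ptges, microsomal prostaglandin E synthase 1, was called in no comparison. The gene (ENSMUSG00000050737, chromosome 2, 30889471 to 30929863, minus strand) had 268, 377, 312 and 352 counts in control, 323, 265, 345 and 452 with IL-1β, 272, 352, 343 and 327 with both, and 238, 263, 285 and 386 with butyrate. The means were 14.6 ± 1.41, 15.9 ± 2.14, 14.2 ± 2.13 and 13.8 ± 2.38 CPM. All conditions overlapped. The log2 difference was 0.13 with IL-1β (95% interval -0.12 to 0.38, adjusted p = 0.514) and -0.17 on adding butyrate to it (-0.42 to 0.08, adjusted p = 0.347). Ptgds, lipocalin-type prostaglandin D synthase (ENSMUSG00000015090, chromosome 2, 25466709 to 25470046, minus strand), had 4 counts over the 4 control libraries, 1 with IL-1β, 0 with both and 2 with butyrate, and a difference between conditions was not detectable at this depth.

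The 4 superoxide genes rose with IL-1β as well. Cybb, the catalytic subunit of the oxidase (ENSMUSG00000015340, chromosome X, 9435252 to 9487771, minus strand), had 61, 63, 63 and 68 counts in control, 201, 274, 253 and 495 with IL-1β, 92, 115, 181 and 166 with both, and 22, 24, 28 and 46 with butyrate. The means were 2.85 ± 0.162, 13.7 ± 3.10, 6.13 ± 2.16 and 1.40 ± 0.423 CPM. No library of 1 condition overlapped those of the next in the order butyrate, control, both agents, IL-1β. IL-1β raised Cybb by 2.28 (SE 0.24, 4.84-fold, adjusted p = 3.47e-06), butyrate lowered it in IL-1β islets by a log2 difference of -1.18 (SE 0.21, adjusted p = 0.000708), and it stayed above control with both agents by 1.10 (SE 0.26, adjusted p = 0.00325). The last call was lost without any 1 of control replicates 1, 2 and 4 and IL-1β plus butyrate replicate 3 (largest adjusted p = 0.0127).

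Butyrate alone gave a Cybb difference of -1.01 (SE 0.34) with an adjusted p of 0.0357, not called. DESeq2 called the same difference (-1.01, adjusted p = 0.00296), as did a fit of only control and butyrate libraries (adjusted p = 0.000301). So did an edgeR fit with the replicate number as a block (-1.02, adjusted p = 4.23e-05). For Cybb, the butyrate difference in IL-1β islets minus that in islets without it was -0.17 with a 95% interval of -0.98 to 0.63. The call for butyrate in IL-1β islets was lost in a fit of only both conditions (-1.18, adjusted p = 0.0175).

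Cyba, the partner of Cybb in the membrane (ENSMUSG00000006519, chromosome 8, 122424776 to 122432930, minus strand), had 7, 19, 22 and 15 counts in control, 46, 92, 67 and 119 with IL-1β, 59, 44, 79 and 62 with both, and 15, 13, 14 and 19 with butyrate. The means were 0.703 ± 0.302, 3.66 ± 0.958, 2.68 ± 0.693 and 0.720 ± 0.102 CPM. IL-1β raised it by 2.38 (SE 0.26, 5.21-fold, adjusted p = 5.29e-08). Adding butyrate gave -0.46 (95% interval -0.88 to -0.05, adjusted p = 0.0970), with overlapping libraries and no call. With both agents it was above control by 1.92 (SE 0.27, adjusted p = 1.65e-06).

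Ncf1, the organizer subunit (ENSMUSG00000015950, chromosome 5, 134220053 to 134229625, minus strand), had 15, 29, 25 and 37 counts in control, 51, 69, 90 and 108 with IL-1β, 39, 43, 71 and 67 with both, and 19, 15, 25 and 26 with butyrate. The means were 1.17 ± 0.362, 3.64 ± 0.857, 2.44 ± 0.852 and 1.01 ± 0.271 CPM. IL-1β raised it by 1.63 (SE 0.25, 3.08-fold, adjusted p = 2.06e-05). Adding butyrate gave -0.59 (95% interval -1.04 to -0.15, adjusted p = 0.0505), not called. An edgeR fit with the replicate number as a block called it (-0.59, adjusted p = 0.00198). With both agents it was above control by 1.03 (SE 0.26, adjusted p = 0.00259), a call lost without control replicate 1 or IL-1β plus butyrate replicate 3 or 4 (largest adjusted p = 0.0148). Ncf1 shares 408 of its 3663 exon bases with Gtf2ird2 on the opposite strand, with the same limit as for Ptgs1.

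Ncf4, another cytosolic subunit (ENSMUSG00000071715, chromosome 15, 78244801 to 78262580, plus strand), had 8, 7, 3 and 8 counts in control, 29, 31, 28 and 60 with IL-1β, 10, 23, 21 and 22 with both, and 5, 7, 0 and 1 with butyrate. The means were 0.288 ± 0.102, 1.66 ± 0.340, 0.840 ± 0.295 and 0.151 ± 0.153 CPM. IL-1β raised it by 2.51 (SE 0.37, 5.70-fold, adjusted p = 7.47e-06). Adding butyrate gave -1.01 (SE 0.31, adjusted p = 0.0150), not called although every library with both agents lay below every IL-1β library. The edgeR fit with the replicate number as a block called this difference (-0.99, adjusted p = 0.00458). With both agents it was above control by 1.51 (SE 0.41, adjusted p = 0.00416), a call lost without any 1 of 5 libraries, control replicates 2 and 3 and IL-1β plus butyrate replicates 2, 3 and 4.

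Counted together, 7 of the 8 tested genes rose with IL-1β, and the same 7 did not overlap with control. Over all genes tested, 11.2% were raised, 17.8% were called in either direction and 24.7% did not overlap. The median log2 fold change was 2.45 over the 8 genes and -0.03 over all genes. As the genes were chosen with earlier results of these data known, their counts beside those of all genes are not independent evidence. On adding butyrate to IL-1β, 4 of the 8 fell (Nos2, Ptgs1, Ptgs2 and Cybb) and 4 did not overlap (Nos2, Ptgs2, Cybb and Ncf4), against 11.1% lowered, 19.5% called and 26.9% without overlap over all genes. The medians were -0.92 and 0.01. The count of 4 fell to 2, Nos2 and Cybb, without IL-1β plus butyrate replicate 1 and also without its replicate 2. With the replicate number as a block, Ncf1 and Ncf4 were called as well.

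With butyrate alone 0 of the 8 were called by edgeR, where 19.9% of all genes were, and Nos2, Ptgs2 and Cybb had an unadjusted p under 0.05, a share of 38.6% over all genes. Only Cybb did not overlap with control, as 30.1% of all genes did not. DESeq2 called Cybb alone and gave no adjusted p for Nos2, and edgeR with the replicate number as a block also called Cybb alone. With both agents against control, 6 of the 8 rose, against 15.8% of all genes raised and 30.6% called. That count was 3 without control replicate 1, 3 without control replicate 2 and 2 without IL-1β plus butyrate replicate 3. Against butyrate alone, both agents raised 5 of the 8 (Ptgs1, Cybb, Cyba, Ncf1 and Ncf4), with log2 differences of 1.26 to 2.40, where 9.92% of all genes were raised and 14.8% called.

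The part of the IL-1β difference that was absent with both agents was computed for each gene, and differences between genes were not tested. On the log2 scale of the fit, the level with both agents was 56.2% of the way back to control for Nos2, 51.9% for Cybb, 42.9% for Ptgs2, 40.04% for Ncf4, 36.5% for Ncf1, 26.8% for Ptgs1 and 19.5% for Cyba. These shares come from 2 comparisons with the same control libraries, carry no test, depend on the prior count for Nos2 and include genes for which the butyrate difference was not called. For Nos2 the CPM scale reads otherwise, with means of 1.85 with IL-1β, 0.207 with both agents and 0.0346 in control.

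**Figure D2:**
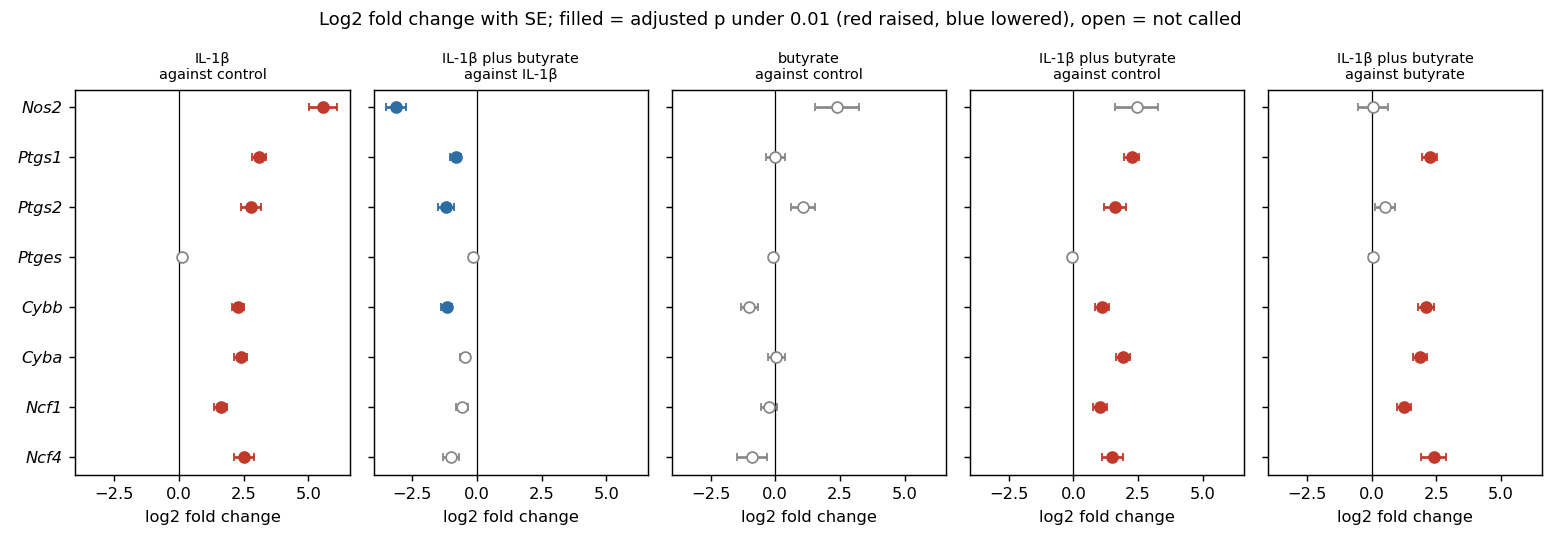
Log2 fold change (x axes) with its SE of the 8 tested genes (rows) in 5 comparisons (panels); filled points had an adjusted p under 0.01, red where raised and blue where lowered. All genes but Ptges are filled for IL-1β against control, and Nos2 has the longest distance from 0 in both panels that involve IL-1β alone.

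Levels of different genes were compared per kilobase of exon. In control the order was Ptges (3.70 CPM per kilobase), Cyba (0.677), Cybb (0.490), Ncf1 (0.320), Ncf4 (0.142), Ptgs1 (0.118), Ptgs2 (0.0676), Ptgds (0.0267) and Nos2 (0.00784). Library ranges overlapped between the neighbours Cyba and Cybb, Ncf4 and Ptgs1, Ptgs2 and Ptgds, and Ptgds and Nos2. With IL-1β the order per kilobase was Ptges (4.06), Cyba (3.52), Cybb (2.35), Ptgs1 (0.996), Ncf1 (0.994), Ncf4 (0.820), Ptgs2 (0.481), Nos2 (0.419) and Ptgds (0.00738). Ptges then overlapped with Cyba, Cyba with Cybb, Ptgs1 with Ncf1 and Ncf4, and Ptgs2 with Nos2. With both agents Nos2 (0.0469 CPM per kilobase) was again below Ptgs2 (0.208) in every library, and with butyrate Nos2 (0.0462) and Ncf4 (0.0749) overlapped. Even with IL-1β, Nos2 thus had about the level per kilobase of Ptgs2, and Ptges was the most abundant by mean in all 4 conditions.

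Other genes of the same pathways were counted from lists. Over all genes tested, 17.8% were called with IL-1β (11.2% raised), 19.5% on adding butyrate to it (11.1% lowered) and 19.9% with butyrate alone. List counts near these shares are no result about a pathway, and the same shares apply to the cell type markers further down. Of 19 nitric oxide genes 18 were tested, and 5 rose and 3 fell with IL-1β (median 0.08). Ass1, argininosuccinate synthase, which renews arginine, rose from 2.72 to 4.48 CPM in control libraries to 8.27 to 8.99 with IL-1β (log2 fold change 1.34, SE 0.15). It fell by a log2 difference of -0.93 (SE 0.15) on adding butyrate, and by -0.78 (SE 0.19) with butyrate alone. Slc7a2, an arginine transporter and the most abundant gene of the list (691 CPM in control), had a log2 difference of -0.55 (SE 0.06) with IL-1β, and Gucy1a1, a subunit of the nitric oxide receptor guanylate cyclase, one of -0.75 (SE 0.17). Pts and Spr, which make the cofactor tetrahydrobiopterin, rose by 0.40 and 0.38, and Nostrin, which binds the endothelial synthase, by 0.86. On adding butyrate 3 of the 18 rose and 3 fell. Among them were Gchfr, the feedback regulator of cofactor synthesis (1.38, SE 0.32), and Ddah2, which breaks down an inhibitor of the synthases (1.32, SE 0.23). Nostrin (0.57) and Spr (-0.31) were also among them. Butyrate alone also raised Gchfr (1.58, SE 0.46) and Ddah2 (0.96, SE 0.22), while Nostrin and Spr were not called with it.

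Of 28 prostanoid and leukotriene genes 18 were tested, and 9 rose and 1 fell with IL-1β (median 0.29). Hpgd, which inactivates prostaglandins, was the one that changed most, from 0.929 ± 0.321 CPM in control to 4.32 ± 0.552 with IL-1β (log2 fold change 2.21, SE 0.21), back to 0.903 ± 0.224 with both agents (-2.27, SE 0.21). Ptger4, a receptor of prostaglandin E2, went from 3.02 to 8.66 CPM with IL-1β (1.52, SE 0.13) and to 3.27 CPM with both (-1.40, SE 0.13). Butyrate alone also lowered Ptger4, by a log2 difference of -1.60 (SE 0.19). Pla2g4a, the phospholipase that frees arachidonic acid, rose by 1.66 (SE 0.41) with IL-1β and did not pass the test on adding butyrate (0.45, SE 0.32). Alox5ap (0.84), which serves leukotriene synthesis, Alox12 (0.77), a lipoxygenase, Hpgds (0.63), the hematopoietic prostaglandin D synthase, and Akr1b3 (0.26), an aldose reductase with prostaglandin F synthase activity, rose with IL-1β. On adding butyrate 5 of the 18 fell, among them Hpgds (-0.82), Akr1b3 (-0.73) and Alox5ap (-0.53), and 2 rose, Ptgr1, a prostaglandin reductase (1.31, SE 0.14), and Alox12 (0.89, SE 0.18).

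Of 15 superoxide genes 8 were tested. With IL-1β 3 rose and none fell (median 0.39), among them Rac2, the small GTPase of the phagocyte oxidase (0.92, SE 0.21), and Noxo1, an organizer of a related oxidase (0.72, SE 0.10). On adding butyrate none of the 8 passed the test (0 by edgeR, median 0.02). With butyrate alone the nitric oxide list had 3 raised and 2 lowered of 18 tested, the prostanoid list 2 and 3 of 18, and the superoxide list 0 and 0. Over all genes 19.9% were called.

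**Figure D3:**
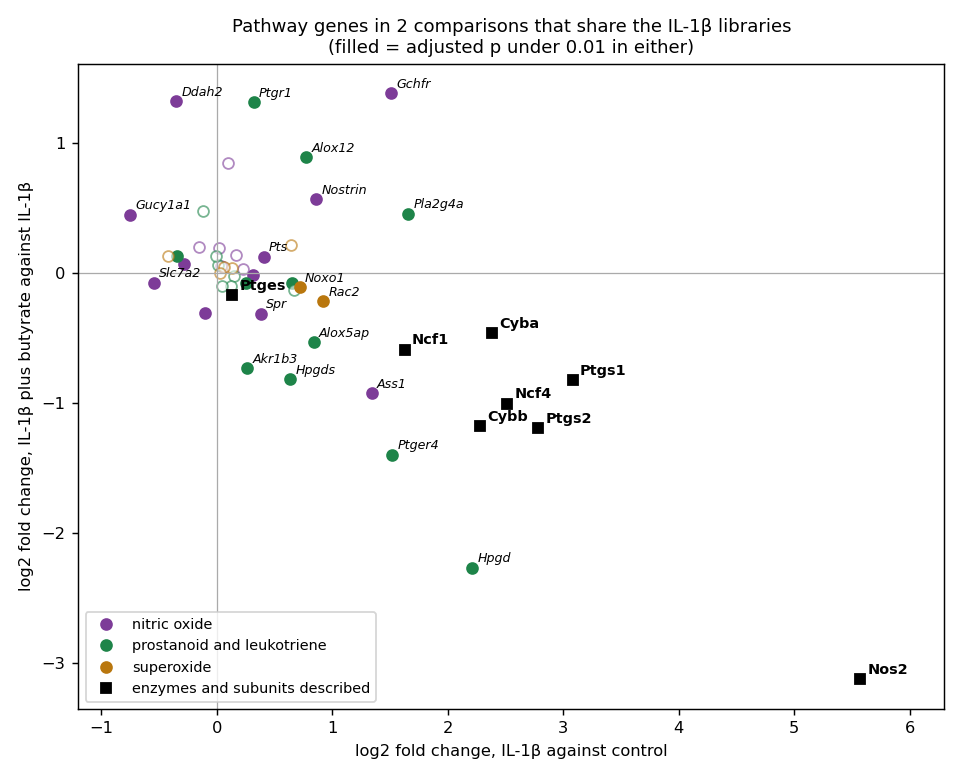
Log2 fold change with IL-1β against control (x axis) and with IL-1β plus butyrate against IL-1β (y axis) for the 8 tested genes (black squares, whether called or not) and the tested genes of the 3 pathway lists (circles, filled where called in either comparison, with up to 8 names a list and 1 called superoxide gene left out). Both axes use the same IL-1β libraries, so spread in those libraries moves a point along both axes in opposite directions; Nos2 and Hpgd lie lowest.

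Several of these genes are also made by macrophages, of which islets hold a resident population, so markers of that cell type were read beside them. All 15 macrophage markers were tested; 14 rose with IL-1β and C1qa was lowered (-0.49), 6 were lowered on adding butyrate, and C1qa was the 1 lowered with butyrate alone. The medians were 2.16, -0.72 and -0.52. The 15 markers summed to 136 to 149 CPM in control libraries, 205 to 267 with IL-1β, 111 to 160 with both agents and 90.3 to 110 with butyrate. C1qa made up most of the sum in control (111 CPM) and moved against the rest, and without it, a choice made after its values were seen, the other 14 summed to 24.5 to 36.0, 114 to 199, 52.8 to 115 and 18.0 to 29.1 CPM. The part of macrophage number or activity in the results above was not tested.

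Member levels were then set against the marker sum of the same library, and the outcome for the superoxide genes differed with and without C1qa. Per 1000 CPM of all 15 markers, Cybb stood at 20.003 ± 1.97 in control, 57.8 ± 6.76 with IL-1β, 43.9 ± 8.42 with both agents and 14.3 ± 5.35 with butyrate. On this scale the IL-1β libraries lay above the control libraries for Cybb (50.6 to 66.9 against 17.6 to 21.8), Ncf4 (6.35 to 8.11 against 1.04 to 2.53), Cyba (11.6 to 18.8 against 2.20 to 7.60) and Ncf1 (12.8 to 20.6 against 4.70 to 11.7). For these 4 genes the IL-1β libraries overlapped with those given both agents, which for Cybb reached from 33.7 to 51.6. Per 1000 CPM of the 14 markers without C1qa, Cybb stood at 92.1 ± 16.8 in control, 88.6 ± 2.84 with IL-1β, 71.6 ± 4.34 with both agents and 62.6 ± 13.9 with butyrate. On this second scale control and IL-1β overlapped for all 4 genes, and Cybb did not overlap between IL-1β (84.4 to 90.9) and both agents (68.2 to 78.0). Ncf4 per 14 markers was at 9.50 ± 4.47, 10.9 ± 1.63, 9.90 ± 2.59 and 8.06 ± 8.36. Between control and IL-1β, whether the 4 superoxide genes stood apart from the marker sum thus differed with and without C1qa. C1qa was the 1 marker that was lowered with IL-1β while the other 14 rose. Between IL-1β and both agents, Cybb stood apart only without C1qa. No other marker was left out, and the part of macrophages was not tested.

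For Nos2 the IL-1β libraries stood apart from control and from both agents on both scales. Per 1000 CPM of all 15 markers they were at 5.33 to 10.1, with 0 to 0.691 in control and 0.855 to 3.16 with both agents. Per 1000 CPM of the 14 markers they were at 8.48 to 15.4, with 0 to 2.89 in control and 1.29 to 5.34 with both agents, and the butyrate mean was 10.4 ± 11.9. Ptgs1 did not overlap between control (2.24 to 4.10) and IL-1β (11.4 to 20.6) per 15 markers but did per 14 (10.2 to 17.1 and 16.7 to 37.1), and it overlapped between IL-1β and both agents on either scale. Ptgs2 likewise did not overlap between control (1.73 to 2.84) and IL-1β (5.67 to 14.6) per 15 markers but did per 14 (7.23 to 11.4 and 7.60 to 26.2). With both agents Ptgs2 was at 4.56 to 9.40 per 15 markers and 7.72 to 16.9 per 14, so it overlapped with IL-1β on either scale.

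**Figure D4:**
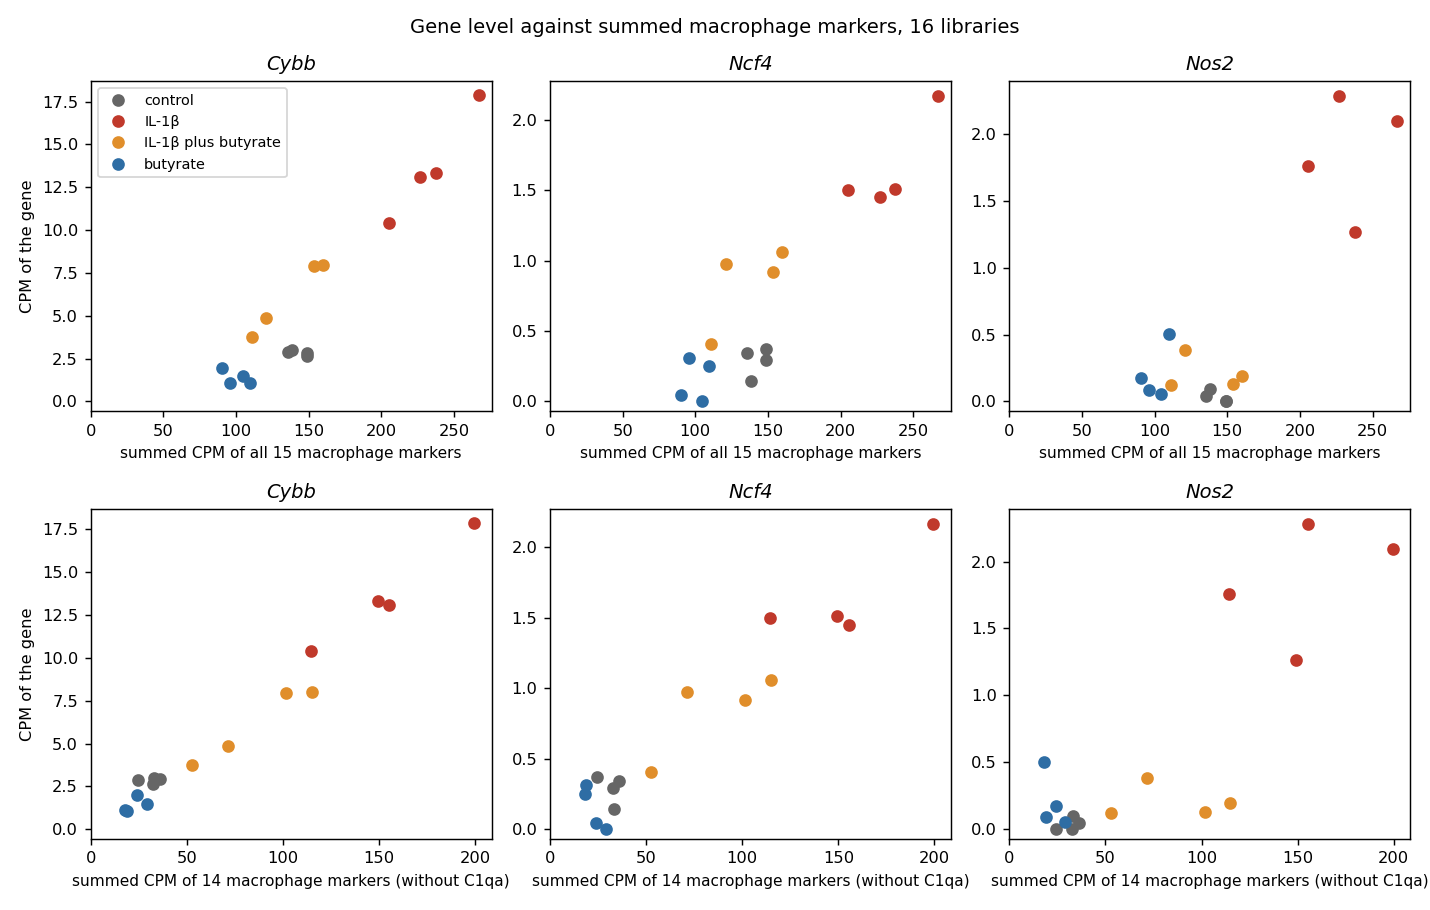
CPM of Cybb, Ncf4 and Nos2 (y axes) against the summed CPM of all 15 macrophage markers (x axes, upper row) and of the 14 without C1qa (lower row) in the 16 libraries, 1 dot a library, coloured by condition. In the lower row Cybb and Ncf4 lie along 1 rising band, in the upper row the control libraries (136 to 149 CPM of the markers) hold less of both genes than the libraries with both agents (111 to 160), and in both rows the libraries with both agents hold less Nos2 than any IL-1β library.

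Markers of other cell types were read in the same way. Neutrophil markers summed to at most 1.20 CPM in any library, Ly6g had no read in any, and of the 7 only Mpo was tested and not called. T cell markers summed to at most 3.59 CPM and B cell markers to at most 2.19 CPM, with none of the 2 and 1 tested called with IL-1β. Of 5 tested endothelial markers 1 rose with IL-1β (Pecam1, 0.92), of 7 fibroblast and stellate markers 1 fell (Pdgfrb, -1.57), of 4 Schwann and 3 acinar markers none was called, and of 3 duct markers 1 rose (Krt7, 0.23). Of 6 beta cell markers 5 fell and 1 rose, of 4 alpha cell markers 2 fell, and of 2 delta cell markers none was called. On adding butyrate to IL-1β, 1 Schwann, 1 alpha and 1 delta cell marker (Sst, 0.61) rose, and 1 acinar (Cela1, -0.83), 1 duct (Krt7, -0.22), 1 beta and 2 alpha cell markers fell.

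The genes whose mean profile over the 4 conditions lay closest to each member were taken from all tested genes, by the root-mean-square distance of log2 CPM centred on the mean of the conditions. These log2 values carry a prior count of 2, which shrinks the changes of genes with few reads. Distances of low genes therefore depend on it. For Nos2, with 3 counts in control, they were Ctrb1 (0.45), Lama1 (0.46) and Kcnt2 (0.54). Ptgs2 had Kcnt2 (0.18), Stx19 (0.19) and Themis2 (0.22), and Ptgs1 had Clec5a (0.053), Lgals9 (0.071) and Gbp2 (0.10). Cybb had Lilrb4a (0.061), Adgre1 (0.094) and Laptm5 (0.10), of which Adgre1 and Laptm5 are on the macrophage list, and Ncf4 had Mpeg1 (0.044), Laptm5 (0.054) and Cybb itself (0.10). Cyba had Acp5 (0.035), Reg3b (0.044) and Ms4a4a (0.061). From control to IL-1β, Reg3b went from 0.0358 to 0.604 CPM and Cyba from 0.703 to 3.66 CPM, so a small distance is not an equal fold change. Ncf1 had Nrp1 (0.031), Havcr2 (0.042) and Gbp5 (0.050), and Ptges, which hardly moved, had Mss51 (0.0047) and Psmc2 (0.0065) among its 3 closest.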

How the data were processed

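RNA was sequenced from mouse islets in 16 libraries, 4 for each of 4 conditions. The authors mapped single-end reads to GRCm38 (mm10; GRCm38.p5 in the submitters' processing notes) with STAR 2.5.3a after FastQC 0.11.7, and the deposited values are whole read counts per gene, without normalization. The counter, its strand setting and the release of the annotation are not given in the sources used here. Of 52636 genes, 10560 had no count in any library, and there were 0 columns of other samples. Totals of 18635943 to 25955943 counts per library limit what low genes can show, since a level of 3 counts lay between 0.108 and 0.156 CPM. Reads carried no molecular identifiers, so counting intervals cover counting error only.

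Genes were kept with filterByExpr of edgeR 4.0.16 (R 4.3.3), counts were scaled by TMM, and 1 robust quasi-likelihood model with 4 condition means was fitted to all 16 libraries. Calls needed a p below 0.01 after Benjamini-Hochberg adjustment over 18587 genes, as in the study. The study used DESeq2. Replicates were independent experiments, and p-values measure the spread between them. Genes were placed with GENCODE M21, and promoter windows and their sequences came from RefSeq (GRCm38.p6). The fit was tested on simulated data first.

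The 9 genes, the pathway lists and the marker lists were chosen with earlier results of these data known. Beside the 9 genes, the text names up to 8 genes a pathway list called with IL-1β or on adding butyrate, largest change first, the 3 genes closest in profile, and single cell type markers, which were chosen after their values were seen. Alternatives were DESeq2 1.42.0, other scalings (RLE, upper-quartile, library size only), no filter and a filter of 10 counts, the replicate number as a block, a non-robust fit, fits of only the conditions compared, a threshold of 0.05 and each library left out in turn. The values of some genes that these rules select are not reported here.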

Additional observations from a re-analysis of the deposited data

Results flagged for a closer look

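Each of the 9 genes was looked at in each of the 4 conditions for a library far from the other 3, by Dixon's 95% critical value for 4 samples, which chance exceeds in about 1 in 20 of the 36 groups looked at. Ptgs2 in butyrate replicate 1 was at 1.46 CPM, where the other butyrate libraries had 0.366 to 0.444. Ncf4 in IL-1β replicate 4 was at 2.17 CPM, where the other IL-1β libraries had 1.45 to 1.51. Ptgds in IL-1β replicate 2 was at 0.0487 CPM, which is 1 read beside 0 in the others.

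The butyrate differences of Nos2 with and without IL-1β differed in the fit, by -5.53 on the log2 scale (SE 0.94, edgeR adjusted p = 0.00440). Control held 3 counts over its 4 libraries, so a fall with butyrate alone could not have been seen, the value depends on the prior count, and a dependence on IL-1β is not shown. It was negative under each of the 24 alternatives that gave an adjusted p, from -6.48 to -4.66, and was not called in 5 of them.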

How the results depend on the processing

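With IL-1β against control the count of 7 genes called held under every alternative tried, leave-one-library-out fits included (7 to 7), and with both agents against butyrate the count of 5 held when any library was left out (5 to 5). With libraries left out in turn, the count ranged from 2 to 5 for IL-1β plus butyrate against IL-1β (4 as reported), from 2 to 6 for IL-1β plus butyrate against control (6), from 0 to 1 for butyrate against control (0) and from 0 to 1 for the difference between the butyrate effects (1). Butyrate against control gave 1 called gene, Cybb, with the replicate block, with the non-robust fit and with only the conditions compared, and 2, Nos2 and Cybb, at an adjusted p under 0.05. The difference between the butyrate effects gave 2, Ptgs2 and Nos2, with no filter on low counts and with the replicate block. The cause of these changes was not tested. DESeq2 gave no adjusted p for Nos2 in butyrate against control or for Nos2, Ptgs2 and Ncf4 in the difference of the butyrate effects, so those values and counts were left out.

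No source used here says that a replicate number marks a shared animal, batch or day, and the numbers were not taken to pair the libraries. In the column names of the counts, the sample numbers run through all 4 conditions of a replicate number before the next begins. The study used paired tests in other assays of these islets. If the replicate numbers do pair the libraries, the reported fit leaves that pairing out. As a hint from the data, deviations of same-numbered libraries correlated at 0.0535 to 0.397 (median 0.118, over 0.1 in 17 of 24 pairs), where the 72 pairs of other numbers had a median of -0.040, and 10 of 16 libraries correlated best with their own number in every other condition. With the replicate block, Ncf1 (-0.59, adjusted p = 0.00198) and Ncf4 (-0.99, adjusted p = 0.00458) were also called on adding butyrate to IL-1β, as were Cybb with butyrate alone (-1.02, adjusted p = 4.23e-05) and the difference of the butyrate effects on Ptgs2 (-2.25, adjusted p = 0.00842). Over all genes, the block gave 132 calls for the difference between the butyrate effects, where the reported fit gave 18, DESeq2 52, no filter 95 and a threshold of 0.05 39.

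The differences that changed sign were not called in any of these fits. For butyrate against control, Ptgs1 was at -0.016 with library size only, -0.011 with no filter, -0.0023 with the replicate block and -0.17 to 0.12 with a library left out, and Cyba at -0.19 to 0.27 with a library left out. For both agents against control, Ptges was at 0.033 with library size only and -0.11 to 0.060 with a library left out. For both agents against butyrate, Nos2 was at -0.44 to 0.91 with a library left out and Ptges at -0.00075 with upper-quartile scaling and -0.037 to 0.14 with a library left out. For the difference between the butyrate effects with a library left out, Ptges was at -0.18 to 0.014, Cybb at -0.34 to 0.058 and Ncf4 at -0.47 to 0.53. Of the genes called as raised or lowered, the raised share with upper-quartile scaling was 57.7% for butyrate added to IL-1β (43.1% as reported) and 58.5% for butyrate against control (42.9%), and with library size only it was 66.9% for both agents against control (51.6%) and 87.5% against butyrate (67.1%). Depth limits Nos2 and Ptgds most, since a library with no read allows up to 0.156 CPM.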

Other observations

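Butyrate replicate 1 held the highest level of its condition for both inducible enzymes, Nos2 (10 counts, where the others had 2, 1 and 4) and Ptgs2 (29 counts, where the others had 10, 7 and 10), and was not highest for Ptgs1, Ptges, Cybb, Cyba, Ncf1 or Ncf4. Over the 652 genes that IL-1β raised at least 2-fold, this library was the highest of the 4 butyrate libraries for 34.4%, beside 13.3%, 26.1% and 26.2% for replicates 2, 3 and 4. Over all tested genes it was the highest for 30.6%, and its median log2 level against the mean of the other 3 was 0.06 over the 652 genes and 0.01 over all. The part of this library in the Nos2 and Ptgs2 results was not tested beyond the values given without it.

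Hpgd of the prostanoid list, whose product breaks prostaglandins down, rose with IL-1β and fell on adding butyrate. So did Ptgs2, whose product makes them and which is not on that list. Ptges, also not on the list, stayed within the spread of the replicates. The levels with both agents were 0.903 CPM for Hpgd, beside 0.929 in control, and 0.951 CPM for Ptgs2, beside 0.309 in control.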
